A study of Homo sapiens with 8 samples.

Results

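The genes described here sense bacteria and pass the signal on inside the cell. They were the receptors ALPK1, NOD1, TLR2, TLR4 and TLR5, the adaptors TIFA and MYD88, the kinases RIPK2 and IRAK1 and the ubiquitin ligase TRAF6. These 10 genes were taken by symbol from the 19475 entries of the expression table, and peaks that carried their names gave 20 of the 22001 m6A regions of the series. N6-methyladenosine (m6A) is a methyl mark on adenosines of mRNA, and it was mapped by sequencing RNA fragments bound by an m6A antibody (IP) beside unselected fragments (input).

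All cells were HCT116, an established human colorectal carcinoma line, and RNA was selected for poly(A) tails. The Control cells received PBS, and the F. nucleatum-treated cells were cultured with Fusobacterium nucleatum, a bacterium found in colorectal tumours. There were 2 input and 2 IP libraries in each group. The methods of the study call the 2 libraries of a group biological replicates. Both groups are 1 cell line in culture, with no immune cells in the design.

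Gram-negative bacteria shed sugar intermediates of lipopolysaccharide synthesis, and ALPK1 is a kinase that binds one of them in the cytosol. ALPK1 then phosphorylates TIFA, which oligomerizes and recruits TRAF6. NOD1 is a cytosolic receptor for a peptidoglycan fragment and signals through RIPK2. Toll-like receptors span a membrane: TLR2 recognizes bacterial lipoproteins, TLR4 lipopolysaccharide and TLR5 flagellin. These 3 receptors use the adaptor MYD88, which gathers IRAK kinases and TRAF6. The routes converge on TAK1 and the IKK complex, which activate NF-kappaB.

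The m6A antibody is known to enrich fragments around GGAC, the core of the most frequent m6A motif, in which the A carries the methyl group. A region is a stretch of exon covered by overlapping peaks of the 4 lists on 1 strand. The regions of a gene were numbered along its transcript, and 10 of the 11 regions found in all 4 lists held GGAC. The sequences below show where the recurrent peaks of the sensors and adaptors lay. For each region the GGAC covered by the most lists, and among those the nearest to the middle of the region, is printed in the mRNA direction with GGAC in capitals. Coordinates are on GRCh37 (hg19), and no sequence is shown for RIPK2. The ALPK1, TIFA region 1 and TRAF6 stretches are coding, and the others are in 3′UTRs.
ALPK1 region 1, chr4:113352291-113352351, plus strand: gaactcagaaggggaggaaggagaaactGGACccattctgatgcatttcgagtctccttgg
ALPK1 region 2, chr4:113353384-113353444, plus strand: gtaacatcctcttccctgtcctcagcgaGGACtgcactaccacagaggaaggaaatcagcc
TIFA region 1, chr4:113199214-113199274, minus strand: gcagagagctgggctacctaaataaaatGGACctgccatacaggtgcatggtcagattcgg
TIFA region 2, chr4:113197394-113197422, minus strand: gccaaggaatgtGGACagtctcttgaagc
TRAF6 region 1, chr11:36511911-36511971, minus strand: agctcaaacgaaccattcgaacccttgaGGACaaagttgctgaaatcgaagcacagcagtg
NOD1 region 5, chr7:30464881-30464909, minus strand: cacctgccatagGGACcaacgggagcgag
NOD1 region 6, chr7:30464244-30464272, minus strand: gcagagcatgttGGACaccccccaccatg
MYD88 region 2, chr3:38183025-38183053, plus strand: tgagactaagaaGGACcagcagagccagc
IRAK1 region 1, chrX:153276899-153276927, minus strand: gcccatctctttGGACagtggccaccctg

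The 11 regions held 27 GGAC in all, and 20 of them lay under a peak of all 4 lists. Of these 20, 6 were followed by T, which makes GGACT. The GGAC shown for NOD1 region 6 and for IRAK1 lay under peaks of 3 lists. The 4 letters are common in stretches of this size: of 1919 regions within 10% of the length of TIFA region 2, 84.8% held at least 1, and of 1136 regions within 10% of the length of TIFA region 1, 96.9%. MYD88 region 3, of 241 nt, held none, beside 69.1% of 1015 regions of like length that held one. A match is a description of the sequence and does not mark a methylated base.

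Expression was given as FPKM, fragments scaled by transcript length and by the total of each input library, so that levels can be compared between genes. The order of mean levels was IRAK1, RIPK2, MYD88, TIFA, TRAF6, NOD1, ALPK1, TLR5, with TLR2 and TLR4 listed at 0. IRAK1, RIPK2, MYD88 and TIFA did not overlap with their neighbours in any library. TRAF6, NOD1 and ALPK1, at 1.9 to 2.73 FPKM in every library, could not be put in order. TLR5 stayed below 0.2 FPKM, under all 3.

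**Figure D1:**
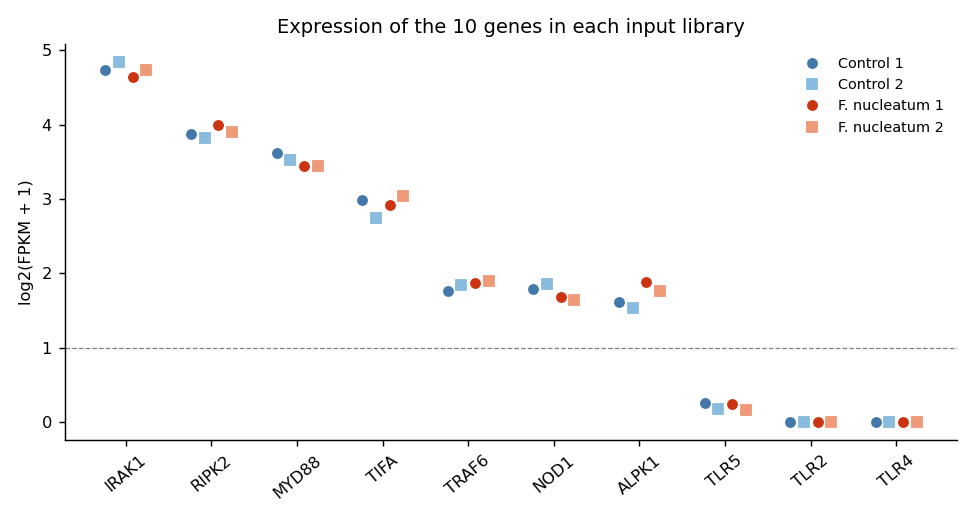
Expression of the 10 genes, ordered by mean, as log2(FPKM + 1) in each of the 4 input libraries (blue, Control; red, F. nucleatum-treated); the dashed line marks 1 FPKM. IRAK1 had the highest mean, 25.8 FPKM, while TLR5, TLR2 and TLR4 lay under the line.

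Levels with and without the bacterium were compared first. ALPK1 mRNA measured 2.05 and 1.9 FPKM in the PBS libraries (Control 1 and 2), against 2.7 and 2.39 FPKM in the treated libraries (F. nucleatum 1 and 2). Both treated libraries lay above both Control libraries. The log2 fold change was 0.25 ± 0.10 (SE), with a 95% confidence interval of 0.01 to 0.49 and an unadjusted p of 0.0429, but it did not pass the correction (limma adjusted p = 0.357). NOD1, the peptidoglycan sensor, measured 2.46 and 2.63 FPKM with PBS against 2.21 and 2.11 with F. nucleatum. Here both treated libraries lay below both Control libraries, with a log2 fold change of -0.17 ± 0.09 (SE), a 95% interval of -0.39 to 0.06 and a limma adjusted p of 0.469.

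TLR2 and TLR4 were listed at 0 FPKM in all 4 libraries. TLR5, the flagellin receptor, measured 0.195 and 0.127 FPKM with PBS against 0.189 and 0.116 with F. nucleatum, so that the groups overlapped. None of the 3 reached the mean of 1 FPKM required for testing. A listed 0 can be a failed estimate: of 3780 genes at 0 in all libraries, 9 had an m6A region in all 4 lists, although none of 10 housekeeping genes was at 0. TLR2, TLR4 and TLR5 had no m6A peak in any list. Annotated transcripts of another gene share the strand and part of the span of TLR4.

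TIFA, the adaptor of ALPK1, measured 6.92 and 5.69 FPKM with PBS against 6.6 and 7.25 with F. nucleatum. The groups overlapped, with a log2 fold change of 0.12 ± 0.11 (SE) and a 95% interval of -0.15 to 0.39 (limma adjusted p = 0.651). Without Control 2 the change was -0.0011 (adjusted p = 0.997), and over all alternatives the adjusted p ran from 0.38 to 0.997. ALPK1 (chr4:113206665-113363777, plus strand) and TIFA (chr4:113194124-113207111, minus strand) stand head to head, and their annotated ends overlap. Whether the libraries kept the strand is not given in the sources used here, so reads of the overlap may not be separable. MYD88, the adaptor of Toll-like receptors, measured 11.3 and 10.5 FPKM with PBS against 9.93 and 9.84 with F. nucleatum. Both treated libraries were lower, with a log2 fold change of -0.13 ± 0.07 (SE) and a 95% interval of -0.31 to 0.05 (limma adjusted p = 0.484).

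RIPK2, the kinase of the NOD1 route, measured 13.6 and 13.1 FPKM with PBS against 14.9 and 13.9 with F. nucleatum. The treated libraries were the higher ones, by 0.10 ± 0.07 (SE) on the log2 scale, with a 95% interval of -0.08 to 0.28 (limma adjusted p = 0.555). IRAK1, the kinase recruited by MYD88, measured 25.7 and 27.7 FPKM with PBS against 24 and 25.7 with F. nucleatum. The groups overlapped, with a log2 fold change of -0.10 ± 0.07 (SE) and a 95% interval of -0.28 to 0.08 (limma adjusted p = 0.576). TRAF6, the ubiquitin ligase on which the ALPK1 and Toll-like receptor routes meet, measured 2.38 and 2.58 FPKM with PBS against 2.66 and 2.73 with F. nucleatum. Both treated libraries were higher, by 0.09 ± 0.09 (SE) on the log2 scale, with a 95% interval of -0.14 to 0.31 (limma adjusted p = 0.685).

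Of the 7 genes tested, none passed an adjusted p of 0.05 by limma, and 1, ALPK1, had an unadjusted p under 0.05. Over all 11088 genes tested, 74 (0.667%) were called higher and 15 (0.135%) lower, and 1496 had an unadjusted p under 0.05. In 3 of the 7 genes both treated libraries lay above both Control libraries, as in 26.1% of all genes tested, and in 2 both lay below, as in 21.1%. The median log2 fold change was 0.09 over the 7 genes and 0.01 over all genes tested. The intervals allowed changes of up to 1.41-fold for ALPK1 and 1.31-fold for TIFA on the FPKM + 1 scale, so changes inside these intervals were not resolved by these libraries.

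**Figure D2:**
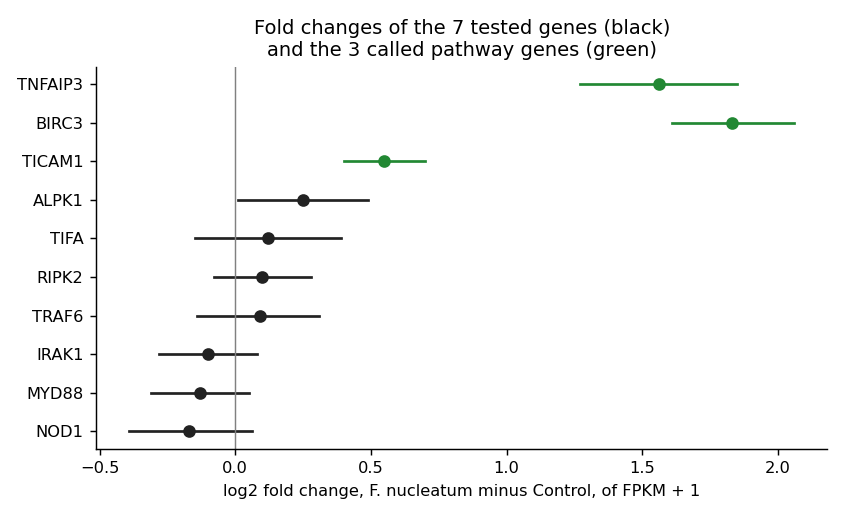
Log2 fold change, F. nucleatum-treated minus Control, of FPKM + 1 with its 95% confidence interval from limma (2 libraries per group) for the 7 tested genes (black) and the 3 pathway genes called at an adjusted p under 0.05 (green). ALPK1 is the only black point whose interval, 0.01 to 0.49, does not cross 0.

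The genes whose levels were most like those of ALPK1 over the 4 libraries, by Euclidean distance of log2(FPKM + 1), were TMEM249 (0.0578), CDKN2B (0.0743) and OSTM1 (0.088). CDKN2B, a cyclin-dependent kinase inhibitor, measured 2.05 and 1.83 FPKM with PBS against 2.54 and 2.43 with F. nucleatum. Since the distance chose them, their order of libraries is no separate result.

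The wider pathway was covered by 6 lists with 73 genes, the 10 genes included, of which 44 could be tested. Called higher were 3 genes (6.82% of those tested, beside 0.667% of all genes tested) and called lower none (beside 0.135%). The lists were chosen with earlier results of these data known, so the contrast of these shares is no separate result. Of the 19 receptors and co-receptors only ALPK1 and NOD1 were tested, 3 receptors were listed at 0 in all libraries and the other 14 had means under 1 FPKM. TICAM1, the adaptor of TLR3 and TLR4 also called TRIF, measured 21.3 and 22 FPKM with PBS against 31.8 and 32.5 with F. nucleatum, higher by 0.55 ± 0.06 (SE) on the log2 scale with a limma adjusted p of 0.0265. BIRC3, a ubiquitin ligase and a known NF-kappaB target, measured 0.429 and 0.449 FPKM with PBS against 4.17 and 4.08 with F. nucleatum. Its log2 fold change was 1.83 ± 0.09 (SE; limma adjusted p = 0.00183). TNFAIP3, which encodes A20, a deubiquitinase that restrains NF-kappaB, measured 0.816 and 0.838 FPKM with PBS against 3.93 and 4.89 with F. nucleatum, higher by 1.56 ± 0.12 (SE) on the log2 scale with a limma adjusted p of 0.00852. In all 3 genes the groups were far apart relative to the spread within them. BIRC3 and TNFAIP3 had Control means of 0.439 and 0.827 FPKM. They passed the mean of 1 FPKM required for testing only through the treated libraries.

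The BIRC3 change was 2.97 with a pseudocount of 0.1, and the ratio of its mean FPKM was 9.4. BIRC3 kept its call under every alternative (adjusted p 0.00143 to 0.0452) except the filter of 5 FPKM, which removes it. The TICAM1 call was lost without F. nucleatum 1 (adjusted p = 0.264) and without F. nucleatum 2 (0.287), with log2 fold changes of 0.56 and 0.54 from fits that had 1 treated library. Over all alternatives its change was 0.52 to 0.60 and its adjusted p 0.0165 to 0.287. The TNFAIP3 call was lost without F. nucleatum 2 (0.0907), in a range of 0.00496 to 0.0907. An unadjusted limma p under 0.05 was found in 4 of the 13 ubiquitin ligases and partner proteins tested, beside 1496 of all 11088 genes tested. Of these 4, BIRC3, XIAP and BIRC2 were higher after treatment and RNF31 was lower. BIRC2 (log2 fold change 0.29) and RNF31 (-0.30) did not pass the correction and are named after their values were seen. The Control mean of XIAP was 0.958 FPKM. Like BIRC3 and TNFAIP3, XIAP passed the mean of 1 FPKM required for testing only through the treated libraries. XIAP, an inhibitor of apoptosis with ubiquitin ligase activity, is named after its values were seen: it measured 0.739 and 1.18 FPKM with PBS against 2.21 and 2.45 with F. nucleatum, a log2 difference of 0.77 ± 0.14 (SE) that did not pass the correction (unadjusted p = 0.00169, limma adjusted p = 0.123). Of the 7 regulators tested that restrain the pathway, 2 had an unadjusted p under 0.05, TNFAIP3 higher and TNIP2 lower (log2 fold change -0.26). Of the 4 adaptors 1 did, TICAM1. Of the other lists, the kinases and their partner proteins (13 tested) spanned log2 fold changes of -0.31 to 0.37 with none called. The 1 unadjusted limma p under 0.05 in that list belonged to TAB2, a partner protein and not a kinase. The ligand transporters and receptor chaperones (5 tested) spanned -0.11 to 0.09 with none called.

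The cell line was checked against markers. EPCAM, an epithelial adhesion molecule, was at 162 to 184 FPKM and KRT8, an epithelial keratin, at 1941 to 2286, while the leukocyte genes CD3E and PTPRC were at 0 in 4 and 3 libraries. Of 8 leukocyte markers only CD68, at 7.15 to 9.3 FPKM, was tested, and their summed level was 7.58 to 9.84 FPKM in Control and 9.46 to 9.96 after treatment. COL1A1 was at 3.78 to 5.72 FPKM, while the stromal markers COL1A2, DCN, LUM and CDH5 were listed at 0, and the 7 fibroblast and endothelial markers summed to 3.85 to 4.58 and 5.19 to 5.81 FPKM. Their part in the results above was not tested.

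The second comparison concerned the m6A peaks. Peaks were found in 7 of the 10 genes, the same 7 that passed the expression filter. Of their 20 regions, 11 had a peak in all 4 lists, beside 51.5% of all 22001 regions. Of the other 9, 5 were in 1 list, 3 in 2 lists and 1 in 3. The 4 lists held 15 and 17 peaks of these genes in Control and 16 and 15 after treatment, 16 ± 1.41 against 15.5 ± 0.707 (SD, n = 2 each), with p = 1 by a two-sided exact permutation test, whose smallest possible p here is 0.333. Exon bases under these peaks were 6166 and 7103 in Control and 7006 and 5753 after treatment, so the groups overlapped.

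No region was lost, that is, found in both Control lists and in neither treated list, and none was gained. Over all regions 2.64% were lost and 2.38% gained. With 1 list left out the rule needs fewer lists: without Control 1, 3 regions of ALPK1 and MYD88 counted as lost (11.3% of all regions). Without F. nucleatum 1, 1 region of NOD1 counted as gained (8.26% of all), and without F. nucleatum 2, 1 region of TRAF6 (11.3% of all).

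RIPK2 had the strongest region, with -log10 p of 133 and 109 in Control and 157 and 129 after treatment. It ranked among the top 3.69%, 5.33%, 2.99% and 3.15% of the peaks of these lists, by the deposited p-value of each peak. The region was 595 nt long over 3 exon blocks (chr8:90798874-90802698), with its middle in the coding sequence 240 nt before the stop. The groups overlapped, and the exact permutation p was 0.667. RIPK2 had no other region.

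TIFA had a strong region with its middle in the coding sequence and a weaker one in its 3′UTR. The strong one ran past the stop codon in every list. Region 1 (chr4:113198780-113206940) had -log10 p of 30.4 and 52.8 in Control and 51.6 and 43.7 after treatment, and the groups overlapped. In 3 lists it reached into the first exon of TIFA, by a block of up to 145 nt that lies wholly inside the annotated ALPK1 gene on the other strand. Region 2, of 389 nt, was at 9.74 and 10.3 in Control and at 7.22 and 15 after treatment, again with overlap. TRAF6 region 1, of 989 nt at the end of the coding sequence, was at 29 and 28.9 in Control and at 24.9 and 31.7 after treatment. The treated lists lay on both sides of the Control lists. TRAF6 regions 2 and 3, of 120 and 150 nt, were weak and lay far into the 3′UTR, region 2 in Control 1 and F. nucleatum 1 and region 3 in F. nucleatum 1 alone.

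MYD88 region 2, which ran from the last coding exons into the 3′UTR, had -log10 p of 19.3 and 30.1 in Control and 25.2 and 21.1 after treatment. Region 3, further into the 3′UTR, was weak, at 4.12 to 5.96 over the 4 lists. In both the groups overlapped. IRAK1 had 1 region, in the 3′UTR, at 13.8 and 5.77 in Control and at 6.92 and 7.89 after treatment, so that Control 1 alone stood above the rest.

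ALPK1 regions 1 and 2 both lay in the coding sequence, far from the stop. Region 1 was at 9.89 and 12.5 in Control and at 11.6 and 9.23 after treatment, and region 2 was at 6.34 and 4.04 in Control and at 8.6 and 5.38 after treatment. ALPK1 had 4 and 5 peaks in the Control lists and 2 and 3 after treatment, with exact permutation p = 0.333, the smallest possible. It was the only one of the 7 genes with peaks whose counts did not overlap. The share of all genes with such counts is not given here. The bases under these peaks did not follow the counts, being 1288 and 1263 in Control and 1616 and 1169 after treatment, with overlap. Of the 5 peaks in Control 2, 2 formed weak regions found in no other list, region 3 at the stop codon (p-value 0.0023) and region 4 in the 3′UTR (0.00081). Within regions 1 and 2 the lists held 4 and 3 peaks in Control and 2 and 3 after treatment, so that the groups overlapped.

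NOD1 had 6 regions at a mean of 2.35 FPKM. Of 3123 genes within 2-fold of that level, 4.19% had as many or more. ALPK1 had 4, as many as or more than which were found in 14.7% of 3041 genes of like level. For MYD88, TRAF6, TIFA, IRAK1 and RIPK2 this share was 22.7%, 27.6%, 50.3%, 86.7% and 88.4%. Transcript length was not matched. Regions 5 and 6 of NOD1, both in the 3′UTR, were in all 4 lists. Its 4 coding regions were each in 1 to 3 lists, with deposited p-values of 5.6e-06 to 0.0079. Region 6 was at 9.16 and 7 in Control and at 5.42 and 6.09 after treatment. It was the only one of the 11 regions in which the groups did not overlap, 8.08 ± 1.53 against 5.76 ± 0.475 (SD, n = 2 each; exact permutation p = 0.333). Region 5 was at 7.41 and 8.46 in Control and at 10.5 and 5.26 after treatment.

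Among all 11341 regions in the 4 lists, both treated lists lay below both Control lists in 18.9% and above in 15.7%, beside 1 and 0 of the 11. The median difference of -log10 p was -0.0552 over the 11 regions and -0.044 over all. This p-value depends on expression and depth as well as on methylation.

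**Figure D3:**
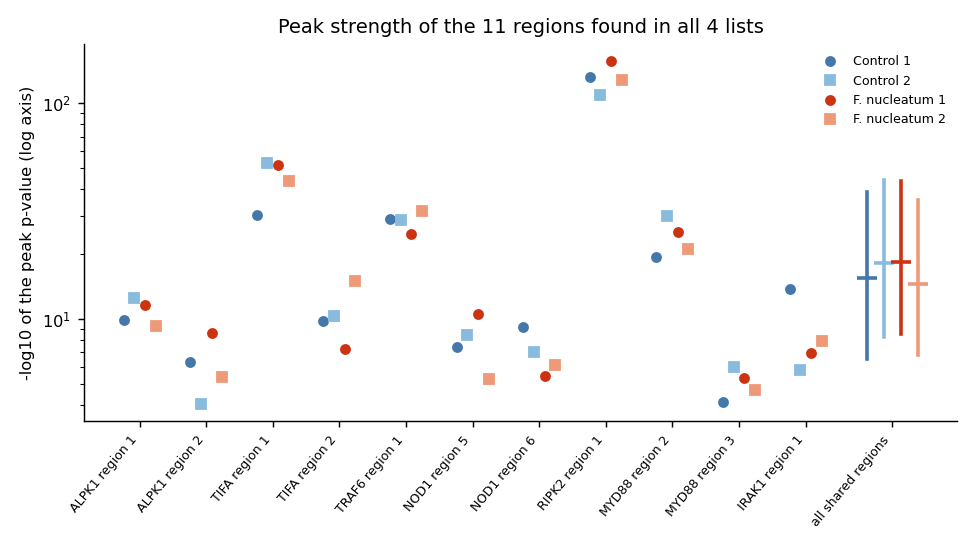
Peak strength (-log10 of the deposited p-value, log axis) of the 11 regions in each list, with the median and the middle 50% of all 11341 regions at the right. RIPK2 region 1, at 109 to 157, lay far above the upper quartile of every list, and NOD1 region 6 was the one region whose groups did not overlap.

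The width of the peaks was examined after their values had been seen. The IRAK1 region covered 477 and 417 nt in Control and 268 and 180 nt after treatment, 447 ± 42.4 against 224 ± 62.2 nt (SD, n = 2 each; exact permutation p = 0.333, the smallest possible). NOD1 region 5 was also narrower after treatment, at 540 and 510 against 450 and 151 nt, and the RIPK2 region was wider, at 506 and 506 against 595 and 536 nt. In the other 8 regions the groups overlapped. Both treated lists were narrower in 17.3% and wider in 13.7% of all 11341 regions, beside 2 and 1 of the 11.

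The share of genes with a region in all 4 lists was larger at higher expression up to 8 to 16 FPKM and was lower, at 58.4%, above 64 FPKM. At 2 to 4 FPKM, where ALPK1, TRAF6 and NOD1 lie, 62.3% of 1633 genes had a region in all 4 lists, and each of these 3 had at least 1. At 0.1 to 0.5 FPKM, the class of TLR5, 5.12% of 1466 genes had one. Of genes listed at 0, as TLR2 and TLR4 were, 0.238% of 3780 did. Peak calling needs reads, so absence of a peak in TLR2, TLR4 and TLR5 says nothing of their methylation at this depth.

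**Figure D4:**
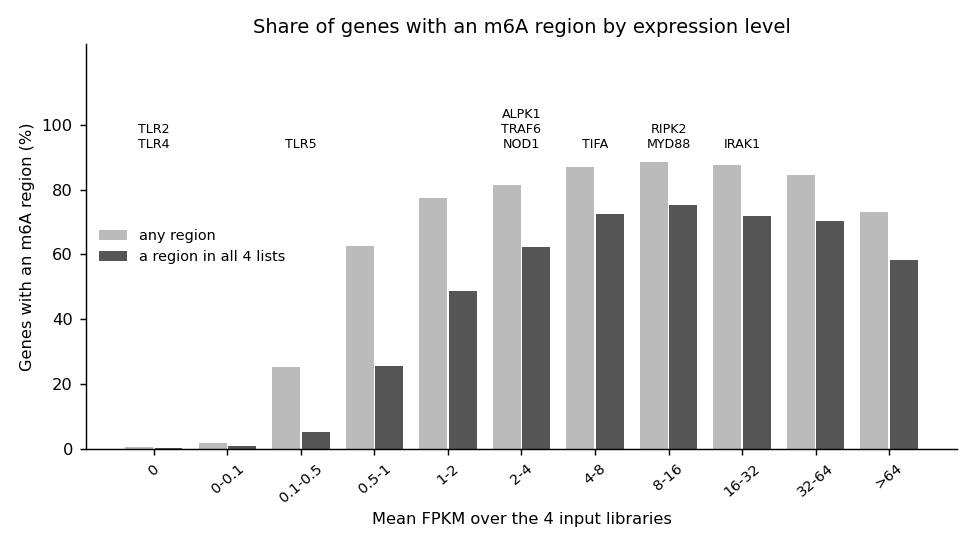
Share of genes with any m6A region (light bars) and with a region in all 4 lists (dark bars) by mean FPKM over the 4 input libraries, with the 10 genes named above their class. The dark share was 0.238% at 0 FPKM and 75.3% at 8 to 16 FPKM, the class of RIPK2 and MYD88.

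In the 73 pathway genes, 4 of 95 regions were lost (4.21%) and 3 gained (3.16%), beside 2.64% and 2.38% of all 22001 regions. With counts this small nothing particular to the pathway is read from these shares. Lost were a coding region of NOD2, the peptidoglycan receptor related to NOD1, a region at the stop codon of SIGIRR, a negative regulator of Toll-like receptor signalling, and 2 regions of TNIP2, a partner of A20. The deposited p-values of the NOD2 region were 0.00028 and 0.0047 for the PBS lists, and NOD2 mRNA was at 0.725 to 0.823 FPKM in all libraries. TNIP2 mRNA measured 30.1 and 29.1 FPKM with PBS against 24.5 and 24.5 with F. nucleatum (limma adjusted p = 0.209). Gained were regions of TLR6, BIRC3 and HSP90B1, a chaperone of Toll-like receptors. The deposited p-values in F. nucleatum 1 and 2 were 0.0026 and 0.0002 for TLR6 and 0.0021 and 3.2e-13 for HSP90B1. TLR6 mRNA was at 0.416 to 0.503 FPKM in all libraries. The BIRC3 region had p-values of 7.9e-30 and 1.3e-15 in the treated lists, in a gene whose mRNA was below 0.5 FPKM in both Control libraries. The part of that low level in the missing Control peaks was not tested.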

How the data were processed

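The authors trimmed reads (Trim Galore 0.3.3) and aligned them to hg19 with HISAT2 2.1.0. The deposited expression values were FPKM, computed by the authors with StringTie from input libraries. The deposited peak lists, 1 per replicate, gave exon blocks and a score from 0 upwards, which was taken for the authors' uncorrected p-value. The methods name MACS2, but the layout resembles exomePeak output, and the program was not settled. The count model of the methods could not be used on FPKM.

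For expression, limma 3.58.1 (R 4.3.3, eBayes with trend) was fitted to log2(FPKM + 1), a scale that understates changes of low genes, over 11088 genes that averaged 1 FPKM or more. Peaks sharing at least 1 bp of exon on the same strand were merged, and placed on GENCODE release 44 canonical transcripts. Other steps used Python 3.11.15. The scripts were tested on simulated data. The 10 genes and all pathway lists were chosen with earlier results of these data known. All 10 genes are named, and of the pathway lists those with a limma call or a lost or gained region. XIAP, BIRC2, RNF31 and TAB2 are named outside this rule, after their values were seen. Lists were counted without set tests.

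No read counts were given, so absolute depth is unknown. Relative input depth was first estimated for each pair of libraries from the most frequent ratio among genes at or below 0.05 FPKM. Control 1 and 2 then gave a ratio of 1.41, out of keeping with the other 5 pairs. The depths were therefore refitted jointly over the 6 pairs, a change made after seeing this and with an earlier depth estimate known. With Control 1 at 1, it gave 1.12, 1.24 and 0.916 for Control 2, F. nucleatum 1 and F. nucleatum 2. It rests on 4 to 8 genes per pair and was used in no test.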

Additional observations from a re-analysis of the deposited data

How the results depend on the processing

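With 2 libraries per group no exact test could pass 0.05, FPKM hold no counting error, and depth limits what peak lists can show for low genes. Of the 12 alternatives, those that kept both libraries of each group called none of the 7 tested genes. The filter of 5 FPKM left ALPK1, NOD1 and TRAF6 out of its fit. TLR2 and TLR4 entered no fit, and TLR5 only the one without a filter. Where a library was left out, the lone library of its group was assumed to vary like the other group. The TIFA change ran from -0.0011, without Control 2, to 0.24 with each library left out, and the cause was not tested. Pathway calls numbered 3 in the fit as reported, 1 with a mean of at least 5 FPKM, which removes BIRC3 and TNFAIP3, and 1 to 4 with each library left out, 1 without F. nucleatum 2. The BIRC3 change was 1.73 to 2.97, the highest with a pseudocount of 0.1. TICAM1 was not called without a filter (adjusted p = 0.0613) or without the trend (0.0589). Deviations from the group means over the genes tested had a correlation of 0.0243 between Control 1 and F. nucleatum 1. A correlation over genes cannot show whether the libraries were made in pairs. With the replicate number as a block 3 pathway genes and 0 of the 7 tested genes were called. Lost regions of the 10 genes were 0 to 3 and gained regions 0 to 1 with each list left out. The difference in peaks per list, -0.5 as reported, was 1.5 for peaks with a p-value of at most 1e-05 and -1.5 to 0.5 with each list left out. The median strength difference was -0.652 to 0.652 with each list left out, and 0.156 as a difference of ranks in percent, a different scale. The causes were not tested.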
